A study of Homo sapiens with 12 samples.

Results

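The genes described here are 10 transcription factors and early response genes: FOS, FOSB, FOSL1, FOSL2, JUN, JUNB, JUND, ATF3, EGR1 and IER3. They were picked by symbol from a table of 58288 genes, each symbol matched 1 row, and all 10 were among the 15973 genes tested, which had at least 1 TPM (transcripts per 1000000 transcripts) in at least 3 libraries. RNA-Seq was performed in FaDu cells, a human head and neck squamous cell carcinoma line, to ask how loss of STING alters gene expression at baseline and after radiation. STING, encoded by TMEM173, is an adaptor of the innate response to cytosolic DNA.

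All cells carried lentiviral Cas9 and a lentiviral guide RNA and had been selected with puromycin. WT cells carried a non-targeting guide RNA and KO cells carried a guide RNA against STING, so each genotype rests on 1 guide. Each genotype was left unirradiated (0 Gy) or given ionizing radiation (RT) as a 2 Gy fraction on each of 4 days. This makes 4 groups, and each holds 3 libraries. The time of RNA collection after the last fraction is not given in the sources used here, nor whether the lines are clones or pools. The labels do not say whether the 3 libraries of a group came from separate cultures, so p-values measure only the spread between these libraries.

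AP-1 is a family of dimers in which a JUN protein pairs with another JUN protein or with a FOS or ATF protein through a leucine zipper, and the dimer then binds DNA through the neighbouring basic region. FOS proteins do not pair with each other, while JUN proteins can. Many of these genes are immediate early genes: their transcripts can rise soon after growth factor, stress or DNA damage signals, without new protein synthesis, and the FOS, JUNB and EGR1 messages are known to be short-lived. FOSL1 protein lacks the strong activation domain of FOS and is often abundant in squamous carcinoma cells with active MAPK signalling.

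Promoters of 8 of the 10 genes were found in the RefSeq table (GRCh38.p14), which gave 9 windows of 250 bases before the start. The sequences below are examples that show the kinds of short element through which early genes are known to respond to signals. Capitals mark matches to TGACG or its reverse complement CGTCA (the core of CREB/ATF sites), TGACATCA (an AP-1/ATF site), TATAAA and the CArG box bound by SRF, each searched on both strands. The first 3 sequences are the 150 bases before the start, and the last 3 are 30-base stretches around 1 element, because there the gene model of the expression table may begin further upstream.
EGR1 (chr5:138465329-138465478, plus strand): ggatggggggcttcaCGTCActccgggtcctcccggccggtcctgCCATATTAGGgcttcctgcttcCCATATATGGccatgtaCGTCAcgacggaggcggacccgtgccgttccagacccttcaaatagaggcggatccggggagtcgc
JUNB (chr19:12791336-12791485, plus strand): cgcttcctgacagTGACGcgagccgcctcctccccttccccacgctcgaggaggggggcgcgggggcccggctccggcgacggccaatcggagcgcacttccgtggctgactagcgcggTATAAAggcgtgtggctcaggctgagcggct
FOSB (chr19:45467846-45467995, plus strand): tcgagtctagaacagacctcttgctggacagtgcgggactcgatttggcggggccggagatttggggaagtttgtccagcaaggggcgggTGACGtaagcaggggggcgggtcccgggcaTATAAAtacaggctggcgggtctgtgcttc
JUN (chr1:58784096-58784125, minus strand): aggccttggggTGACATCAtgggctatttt
FOS (chr14:75278752-75278781, plus strand): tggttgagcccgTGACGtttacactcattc
FOSL2 (chr2:28392780-28392809, plus strand): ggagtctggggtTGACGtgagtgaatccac

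TGACG was found in the windows of FOS, FOSB, FOSL2, JUN, JUNB, JUND and EGR1, and in 21.2% of 35116 windows in the whole table. TGACATCA was found in JUN, 67 bases before the start, and in 1 of the ATF3 windows, 123 bases before the start, against 2.37% of all windows. EGR1 had 2 CArG boxes, 105 and 83 bases before its start, against 1.16% of all windows with at least 1. TATAAA lay 30 to 33 bases before the start in FOS, FOSB and JUNB and also occurred in 1 ATF3 window, against 10.7% of all windows. TGAGTCA, the other common AP-1 site, was in none of these windows, against 4.2% of all windows. A match describes letters in a window and does not show binding in these cells.

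The deposited values are TPM, which allow levels to be compared between genes per unit of transcript length but keep no depth, so the depth of each library is unknown. Every library summed to 1000000 TPM, 14860 to 15292 genes reached 1 TPM in each, and libraries of the same group correlated at 0.983 to 0.987 across genes on the log2 scale. TMEM173 checked the genotype: it was 21.1 to 26.1 TPM in the 6 WT libraries and 5.18 to 7.41 TPM in the 6 KO libraries. All 8 squamous epithelial markers examined were at 1 TPM or more in all libraries, while 3 of 10 markers of other cell types (CD14, CDH5 and COL1A1) reached that level in all and LUM was at 0 throughout. The other-cell markers summed to 18.2 to 21.4 TPM in WT 0 Gy and 20.7 to 23.9 in KO 0 Gy. After RT they summed to 24.5 to 27.9 TPM in WT and 26.3 to 30.1 in KO cells. The higher sums lay mostly in CDH5. Its mean went from 9.57 to 15.01 TPM with RT in WT cells and from 10.93 to 17.26 in KO cells. Mean COL1A1 went from 7.41 to 7.73 TPM in WT and from 6.73 to 7.23 in KO cells. Mean CD14 went from 2.82 to 3.05 TPM in WT cells and fell from 4.07 to 3.19 in KO cells. The part of these markers in the results was not tested. In bulk RNA, fewer cells that express a gene and less RNA per cell cannot be told apart.

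FOSL1 was the most abundant of the 10 genes by TPM, with a mean of 198.8 TPM over the 12 libraries. JUNB followed with 139 TPM, EGR1 with 80.5, IER3 with 62.2, JUN with 38.7, JUND with 34.3, FOSL2 with 25.2 and FOS with 16.4 TPM. ATF3 and FOSB were the lowest, with means of 4.81 and 3.29 TPM. The range from the lowest to the highest library was narrowest for JUND (1.32-fold) and widest for ATF3 (5.57-fold).

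**Figure D1:**
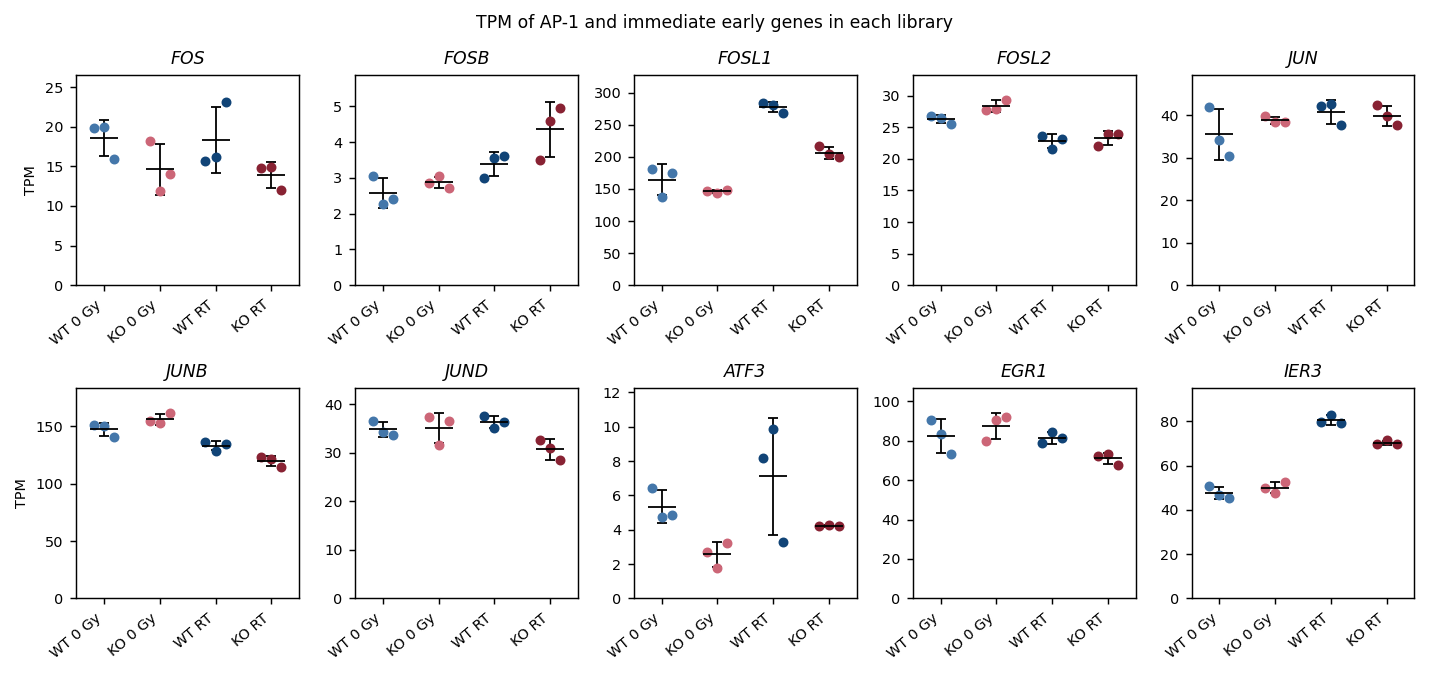
TPM of the 10 genes (vertical axes, each from 0) in the 4 groups, with 1 point per library and black bars for the mean ± SD (n = 3). FOSL1 and IER3 lie higher in every irradiated library than in any unirradiated library of either genotype, and JUNB and FOSL2 lie lower.

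Radiation was followed by higher FOSL1 and IER3 in both genotypes, while JUNB and FOSL2 fell in KO cells. FOSL1 (chromosome 11, 65892049 to 65900573, minus strand) encodes FRA-1, the FOS family member typical of invasive squamous cells. It was 181, 137 and 175 TPM in the WT 0 Gy libraries and 284, 281 and 269 TPM in the WT RT libraries. In KO cells it was 146, 144 and 148 TPM at 0 Gy and 217, 204 and 199 TPM after RT. All 6 irradiated libraries therefore lay above all 6 unirradiated ones, and the 2 irradiated groups did not overlap each other. The increase was 69.1% in WT cells (log2 fold change 0.76 ± 0.089 (SE), limma adjusted p = 0.0014) and 41.5% in KO cells (0.50 ± 0.089, limma adjusted p = 0.015). The call in KO cells was lost, with adjusted p between 0.050 and 0.056, without KO 0 Gy replicate 1, KO 0 Gy replicate 2 or KO RT replicate 1. Adjusted p-values throughout come from limma on log2(TPM + 1) with Benjamini-Hochberg adjustment over all 15973 genes, and with 3 libraries a group an exact two-sided permutation test cannot give a p below 0.1, the value reached wherever groups did not overlap.

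IER3 (chromosome 6, 30743199 to 30744554, minus strand), an early stress response gene that modulates survival signalling, moved with nearly the same size as FOSL1. Its level was 50.9, 46.7 and 45.3 TPM in WT 0 Gy and 79.6, 83.1 and 79.4 TPM in WT RT. In KO cells it was 49.9, 47.8 and 52.5 TPM at 0 Gy and 69.6, 71.5 and 69.9 TPM after RT. The unirradiated groups overlapped, every irradiated library lay above every unirradiated one, and the 3 KO RT libraries lay below the 3 WT RT libraries. IER3 rose by 69.3% in WT cells (log2 fold change 0.75 ± 0.054, limma adjusted p = 8.5e-05) and by 40.5% in KO cells (0.48 ± 0.054, limma adjusted p = 0.0012). Both calls held under every alternative run. An antisense gene, IER3-AS1, overlaps IER3 and was at 0.296 to 1.73 TPM; whether reads were assigned by strand is not given in the sources used here.

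JUNB (chromosome 19, 12791496 to 12793315, plus strand) encodes a JUN protein that transactivates less strongly than JUN at many AP-1 sites. It was 151, 151 and 141 TPM in WT 0 Gy and 137, 129 and 135 TPM in WT RT. In KO cells it was 155, 153 and 162 TPM at 0 Gy and 123, 121 and 114 TPM after RT. No 2 of the 4 groups overlapped, in the order KO 0 Gy, WT 0 Gy, WT RT and KO RT from highest to lowest. The decrease with RT passed the test in KO cells (log2 fold change -0.38 ± 0.048, -23.4%, limma adjusted p = 0.0022) and held there under every alternative run. In WT cells the difference was -0.14 ± 0.048 (-9.60%), which did not pass (limma adjusted p = 0.14). JUNB overlaps HOOK2 on the opposite strand, which was at 26.9 to 44.8 TPM and differed by -0.016 on the log2 scale between KO RT and KO 0 Gy (limma adjusted p = 0.97).

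FOSL2 (chromosome 2, 28392448 to 28417312, plus strand), which encodes FRA-2, was 26.8, 26.4 and 25.6 TPM in WT 0 Gy and 23.7, 21.6 and 23.2 TPM in WT RT. In KO cells it was 27.7, 27.9 and 29.4 TPM at 0 Gy and 22.0, 23.9 and 24.0 TPM after RT. Irradiated libraries lay below unirradiated ones in both genotypes, in the direction opposite to FOSL1. The log2 fold change was -0.27 ± 0.056 in KO cells (limma adjusted p = 0.029) and -0.19 ± 0.056 in WT cells (limma adjusted p = 0.095). The KO call was lost without any 1 of the 6 KO libraries (adjusted p 0.057 to 0.11) and in a fit to the 6 KO libraries alone (0.12). Over the 12 libraries the levels of FOSL1 and FOSL2 had a Pearson r of -0.858, given as a description of libraries that share treatment groups.

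The other FOS and JUN members did not pass the test with radiation in either genotype. FOS (chromosome 14, 75278774 to 75282230, plus strand), the prototype short-lived early gene, was 19.8, 19.95 and 15.96 TPM in WT 0 Gy, 15.7, 16.1 and 23.2 in WT RT, 18.1, 11.8 and 13.98 in KO 0 Gy and 14.8, 14.9 and 12.03 in KO RT. Irradiated and unirradiated libraries overlapped in both genotypes, with a log2 fold change of -0.031 in WT cells (95% interval -0.43 to 0.36) and -0.054 in KO cells (-0.45 to 0.34). JUN (chromosome 1, 58780788 to 58784327, minus strand), the strongest activator of its family, ranged from 30.3 to 42.7 TPM over all libraries, and its groups overlapped in every comparison (0.21, -0.022 to 0.44, in WT; 0.037, -0.19 to 0.27, in KO). JUND (chromosome 19, 18279760 to 18281622, minus strand), the member usually expressed without stimulation, was 33.8 to 36.6 TPM in WT 0 Gy, 35.2 to 37.7 in WT RT, 31.7 to 37.4 in KO 0 Gy and 28.5 to 32.8 in KO RT. Its log2 fold change with RT was 0.061 in WT and -0.19 in KO cells, the only one of the 10 genes whose sign differed between the genotypes.

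FOSB (chromosome 19, 45467995 to 45475179, plus strand), an early gene noted for a stable truncated isoform, was 3.04, 2.26 and 2.41 TPM in WT 0 Gy, 2.99, 3.57 and 3.603 in WT RT, 2.85, 3.04 and 2.71 in KO 0 Gy and 3.501, 4.60 and 4.95 in KO RT. The KO RT libraries lay above the KO 0 Gy libraries, but the difference of 0.46 ± 0.13 did not pass (limma adjusted p = 0.078), nor did that of 0.30 ± 0.13 in WT cells (0.24). It passed in KO cells without KO RT replicate 1 (0.58, limma adjusted p = 0.042). FOSB overlaps ERCC1 on the opposite strand, which was at 52.2 to 75.6 TPM, far above FOSB, and differed by 0.13 on the log2 scale between KO RT and KO 0 Gy (limma adjusted p = 0.64).

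EGR1 (chromosome 5, 138465490 to 138469315, plus strand), a zinc finger early gene driven by SRF, was 90.2, 83.4 and 73.0 TPM in WT 0 Gy and 78.5, 84.2 and 81.1 TPM in WT RT. In KO cells it was 79.8, 90.6 and 91.8 TPM at 0 Gy and 72.1, 73.0 and 67.9 TPM after RT. The WT groups overlapped, while the KO RT libraries lay below every KO 0 Gy and every WT RT library and reached the level of the lowest WT 0 Gy library. The log2 fold change with RT was -0.012 ± 0.080 in WT cells and -0.29 ± 0.080 in KO cells (limma adjusted p = 0.075), which passed without WT 0 Gy replicate 3 (0.042).

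ATF3 (chromosome 1, 212565334 to 212620777, plus strand), a stress-induced ATF protein that can pair with JUN proteins, was the least reproducible member. It was 6.46, 4.72 and 4.84 TPM in WT 0 Gy, 8.17, 9.86 and 3.31 in WT RT, 2.71, 1.77 and 3.21 in KO 0 Gy and 4.19, 4.29 and 4.19 in KO RT. The 3 KO 0 Gy libraries lay below the 3 WT 0 Gy libraries, and WT RT replicate 3 lay far below the other 2 libraries of its group. The difference of KO from WT at 0 Gy was -0.84 ± 0.30 (limma adjusted p = 0.22), and after RT it was -0.53 ± 0.30 (0.40). Without WT RT replicate 3 both passed, at -0.84 (limma adjusted p = 0.039) and -0.93 (0.034). The radiation differences of 0.26 in WT and 0.57 in KO cells did not pass (limma adjusted p = 0.71 and 0.34).

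Counted together, 2 of the 10 genes passed the test with radiation in WT cells, both higher, and 4 in KO cells, 2 higher and 2 lower. Over all genes tested, 3.74% passed in WT cells (2.24% higher and 1.5% lower) and 3.69% in KO cells (2.0% higher and 1.7% lower). The irradiated and unirradiated groups did not overlap for 4 of the 10 in WT cells, 2 above and 2 below, where 24.8% of all genes did not (14.7% above and 10.1% below). They did not overlap for 7 of the 10 in KO cells, 4 above and 3 below, where 24.3% of all genes did not (13.7% above and 10.6% below). FOSL1 and IER3 were the 2 genes that passed in both genotypes. These 2 comparisons share no library, but their p-values use the same estimate of the spread, taken from all 12 libraries.

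**Figure D2:**
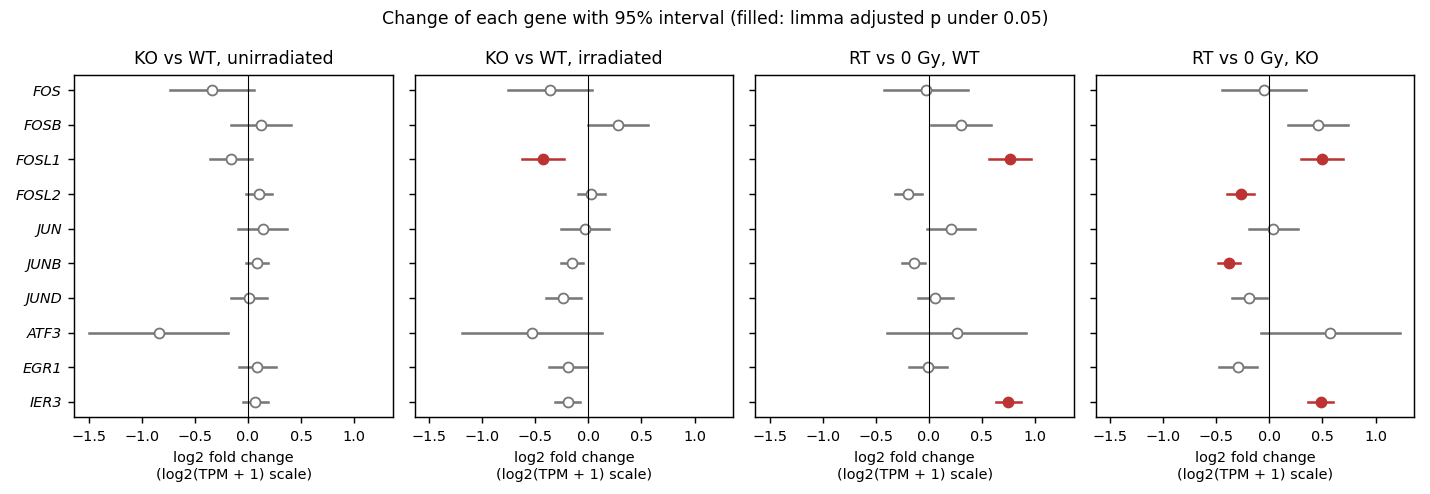
Log2 fold change of each of the 10 genes on the log2(TPM + 1) scale (horizontal axis) in the 4 comparisons, with lines for the 95% interval from limma and filled red points for an adjusted p under 0.05. FOSL1 and IER3 are filled to the right of 0 in both radiation panels, JUNB and FOSL2 to the left in the KO radiation panel, and FOSL1 to the left in KO against WT after radiation.

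Within the FOS family, FOSL1 made up most of the transcripts in every library. Its share of the summed FOS, FOSB, FOSL1 and FOSL2 TPM was 77.4% ± 3.23 (SD, n = 3) in WT 0 Gy and 76.1% ± 1.07 in KO 0 Gy, and it was 86.2% ± 1.60 in WT RT and 83.2% ± 0.97 in KO RT. FOSL2 went from 12.5% to 7.08% of the family in WT and from 14.8% to 9.41% in KO cells. FOS itself was 8.88% and 7.61% of the family at 0 Gy and 5.70% and 5.60% after RT, in WT and KO cells respectively.

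JUNB was the main JUN transcript, with 67.8% ± 1.72 of the summed JUN, JUNB and JUND TPM in WT 0 Gy, 67.9% ± 0.99 in KO 0 Gy, 63.3% ± 1.15 in WT RT and 62.9% ± 0.65 in KO RT. The summed FOS family TPM was 212 ± 23.6 in WT 0 Gy, 192 ± 4.32 in KO 0 Gy, 322 ± 3.85 in WT RT and 248 ± 8.72 in KO RT. The summed JUN family TPM was 218 ± 12.5, 230.3 ± 7.11, 210.5 ± 5.17 and 190.4 ± 9.13 in the same order. The ratio of FOS to JUN family transcripts was accordingly 0.97 ± 0.12 in WT 0 Gy, 0.83 ± 0.011 in KO 0 Gy, 1.53 ± 0.025 in WT RT and 1.30 ± 0.022 in KO RT. Ratios did not overlap between any 2 groups, although WT 0 Gy replicate 2, at 0.847, lay just above the KO 0 Gy libraries at 0.821 to 0.841. These ratios describe transcripts, not AP-1 dimers.

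**Figure D3:**
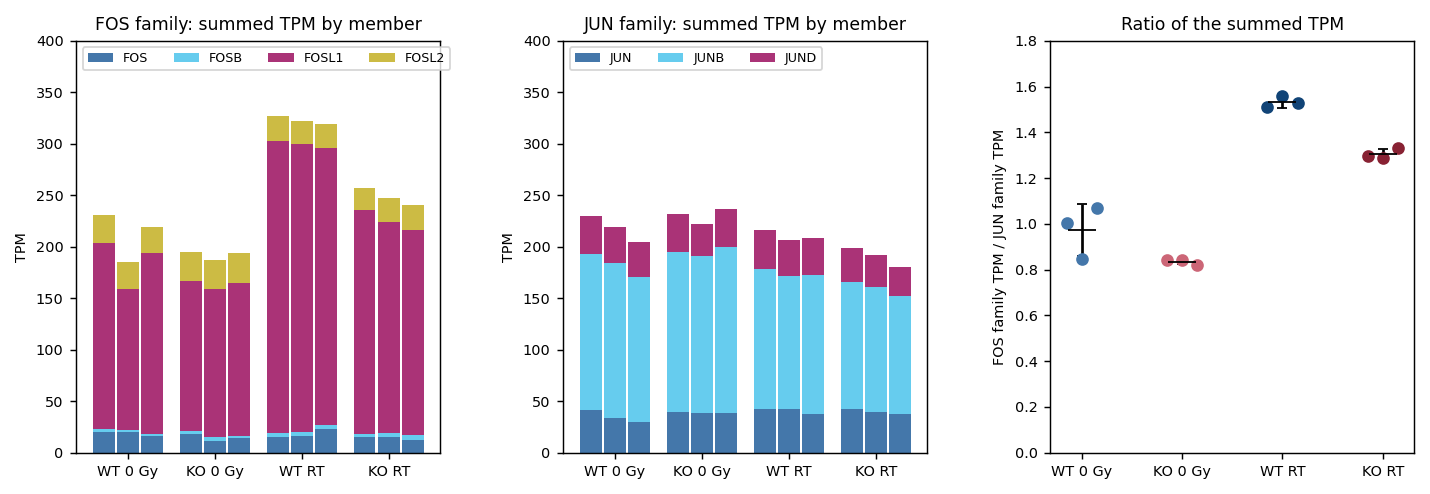
Summed TPM of the FOS family and of the JUN family in each of the 12 libraries, stacked by gene, and the ratio of the 2 sums with the mean ± SD (n = 3). FOSL1 is the largest part of the FOS family in every library, and the mean ratio is 1.53 in WT RT and 1.30 in KO RT against 0.97 and 0.83 at 0 Gy.

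Comparing KO with WT cells, FOSL1 was lower in irradiated KO cells and no gene passed the test in unirradiated cells. At 0 Gy none of the 10 passed in limma (1, ATF3, had an unadjusted p under 0.05, against 14.3% of all genes), with a background of 1.73% of all genes past the adjusted threshold. FOSL1 at 0 Gy differed by -0.16 ± 0.089 (limma adjusted p = 0.48), and by -0.28 without WT 0 Gy replicate 2, the library at 137 TPM (0.027). FOSL2 and JUNB lay above WT and ATF3 below WT in every 0 Gy library, so 3 of the 10 did not overlap, against 20.6% of all genes (8.51% above and 12.1% below). Of the 10 differences at 0 Gy, 7 were positive and 3 negative, with a median of 0.077, where the median over all genes was -0.021.

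After radiation, 1 of the 10 passed, against 3.59% of all genes (2.66% lower): FOSL1 was 25.6% lower in KO cells (log2 fold change -0.43 ± 0.089, limma adjusted p = 0.028). That call was lost without any 1 of the WT RT libraries or without KO RT replicate 2 or 3 (adjusted p 0.065 to 0.098), and with no filter on low values (0.055). FOS, FOSL1, JUNB, JUND, EGR1 and IER3 were lower in every KO RT than in every WT RT library, so 6 of the 10 did not overlap with KO lower, against 14.5% of all genes (24.1% in either direction, 9.62% with KO higher). Of the 10 differences 8 were negative, with a median of -0.19, where the median over all genes was -0.017. The share of negative differences over all genes was not computed, so this count is only a description. For IER3 the difference was -0.19 ± 0.054 (limma adjusted p = 0.083), for JUND -0.24 ± 0.074 (0.12), for JUNB -0.15 ± 0.048 (0.12), for EGR1 -0.19 ± 0.080 (0.24) and for FOS -0.36 ± 0.18 (0.33). FOSB was the exception in size, at 0.28 ± 0.13 in the other direction (limma adjusted p = 0.28), and FOSL2 differed by 0.029.

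Whether the radiation effect itself differed between the genotypes was tested as an interaction in the same fit. None of the 10 passed in limma, where 0.0188% of all genes did. At an unadjusted p under 0.05 there were 4, IER3, JUNB, EGR1 and JUND, against 6.61% of all genes. For 8 of the 10 the radiation effect was smaller or more negative in KO than in WT cells, with a median interaction of -0.20 (all genes -0.0024). The share of such signs over all genes was not computed here either. IER3 had an interaction of -0.27 ± 0.076 (limma adjusted p = 0.67), FOSL1 -0.27 ± 0.13 (0.76), JUNB -0.24 ± 0.068 (0.66), EGR1 -0.28 ± 0.11 (0.74) and JUND -0.25 ± 0.11 (0.74). The smaller FOSL1 and IER3 increases in KO cells are therefore not shown to differ from those in WT cells.

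Replicates differed in how closely they kept to their group mean. The residual SD on the log2 scale was 0.40 for ATF3, larger than that of 91.5% of all genes tested, and 0.24 for FOS (73.3%), against a median of 0.15 over all genes. JUNB (0.051), FOSL2 (0.055) and IER3 (0.058) were among the steadiest, each with a larger SD than only 7.55% to 10.6% of genes. In WT 0 Gy replicate 1 all 10 genes lay above their group mean, while 48.9% of all genes did, and in WT 0 Gy replicate 3 9 of the 10 lay below theirs. The members passed in the same number without WT 0 Gy replicate 1 (2 with radiation in WT cells, 0 for KO at 0 Gy). After removing group means, JUNB and JUND deviated together most closely (r = 0.725 over 12 libraries), followed by JUN and IER3 (0.698), JUN and EGR1 (0.644) and EGR1 and IER3 (0.641). FOSB and JUNB deviated in opposite directions (r = -0.408). These values describe libraries that share group means and are given without a test.

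**Figure D4:**
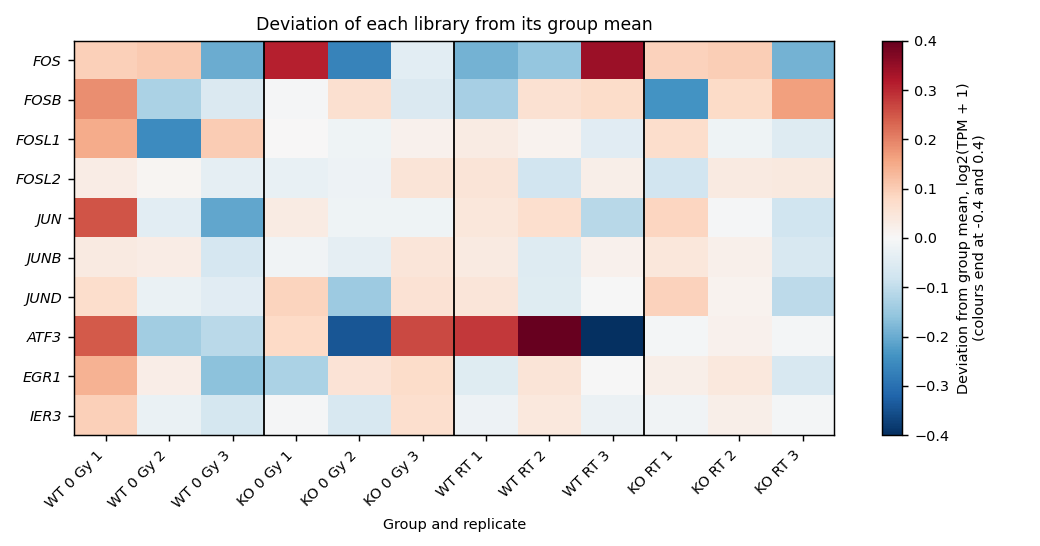
Deviation of each library (columns, 3 per group) from its group mean on the log2(TPM + 1) scale for the 10 genes (rows), red above and blue below the mean, with colours ending at -0.4 and 0.4. The column of WT 0 Gy replicate 1 is red in all 10 rows, and ATF3 spans the widest range, from -0.81 in WT RT replicate 3 to 0.53 in WT RT replicate 2.

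Many other immediate early genes also rose with radiation. Of 28 such genes 26 were tested, and 11 rose and none fell in WT cells (42.3%, median log2 fold change 0.33), while 10 rose and none fell in KO cells (38.5%, median 0.36). Over all genes tested 3.74% passed in WT and 3.69% in KO cells, with medians of 0.017 and 0.019. The list was chosen with earlier results of these data known, so these shares are a description and not an independent test. The 10 genes called in KO cells were all among the 11 called in WT cells. The list holds 5 DUSP phosphatases, which can switch off MAPKs; DUSP1, DUSP4, DUSP5 and DUSP6 rose in both genotypes, and DUSP2 differed by 0.24 in WT and 0.19 in KO cells without passing (limma adjusted p = 0.43 and 0.55). DUSP1 went from 7.65 ± 0.43 to 16.4 ± 1.26 TPM in WT cells (1.00 ± 0.090, limma adjusted p = 0.00031) and from 7.56 ± 0.16 to 10.9 ± 1.397 TPM in KO cells (0.46 ± 0.090, 0.021). DUSP5, which acts on nuclear ERK, rose by 0.89 in WT and 0.76 in KO cells (limma adjusted p = 0.00031 and 0.00079), and DUSP6, which acts on cytoplasmic ERK, by 0.93 and 0.67 (0.0055 and 0.026). PHLDA1 rose by 0.77 and 0.57 (limma adjusted p = 0.0011 and 0.0057), EGR3, a relative of EGR1, by 0.56 and 0.67 (0.0089 and 0.0035), and CTGF, a secreted matricellular protein, by 0.75 and 0.57 (0.0011 and 0.0052). KO cells had less DUSP1 (-0.55, limma adjusted p = 0.0077), PHLDA1 (-0.45, 0.017) and KLF6 (-0.37, 0.039) than WT cells after radiation, and none of the 26 passed in limma at 0 Gy (4 at an unadjusted p under 0.05, against 14.3% of all genes). The DUSP1 interaction of -0.54 ± 0.13 did not pass (limma adjusted p = 0.57), nor did that of any other gene of the list. The DUSP1 call in irradiated KO cells was lost in a fit to only the 6 irradiated libraries (limma adjusted p = 0.079) and the DUSP6 call with radiation in KO cells in 8 of 18 alternatives. The KLF6 call was lost in 14 of 18 alternatives and the PHLDA1 call without WT RT replicate 1 or 2 or KO RT replicate 2 or 3.

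Genes known as AP-1 targets also rose with radiation: 13 of the 18 tested (of 20 listed) in WT cells (72.2%, median 0.51) and 11 in KO cells (61.1%, median 0.51), with none that fell and 10 called in both. The same backgrounds of 3.74% and 3.69% of all genes apply, and this list too was chosen with earlier results of these data known. Several of them also answer to NF-κB, SMAD or other factors. The collagenase MMP1 went from 6.43 ± 0.42 to 15.4 ± 1.77 TPM in WT cells (1.14, limma adjusted p = 0.00025) and from 12.6 ± 0.94 to 25.7 ± 2.44 TPM in KO cells (0.97, 0.00073). The stromelysin MMP10 rose by 1.04 in WT and 1.22 in KO cells (limma adjusted p = 7.7e-05 and 3.5e-05). The chemokine CXCL8 rose by 1.20 and 0.72 (limma adjusted p = 0.0016 and 0.023). The cytokine IL6 was 1.78 ± 0.23 TPM in WT 0 Gy and 7.66 ± 0.59 in WT RT (1.64, limma adjusted p = 0.0011), and 1.58 ± 0.76 in KO 0 Gy and 3.06 ± 0.11 in KO RT (0.70, 0.060). In KO cells the matrix protein FN1 rose by 0.92 (limma adjusted p = 0.0086). In WT cells FN1 was 10.3 ± 1.87 TPM at 0 Gy and 17.0 ± 2.16 TPM after RT, also without overlap, as were 14.7% of all genes with RT higher. MMP3, counted among the 11 in KO cells, reached 1 TPM only in the 3 KO RT libraries (1.08, 1.48 and 1.16 TPM, against 0 to 0.66 TPM elsewhere) and so entered the test through the group where it was high. Its difference was 0.81 (limma adjusted p = 0.0094), or 1.87 with a pseudocount of 0.1 (0.060), and the call was also lost in a fit to only the 6 KO libraries (0.064).

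KO and WT cells differed in AP-1 targets in both directions, so these genes did not move as 1 group. At 0 Gy 3 were higher and 4 lower in KO cells (38.9% of the 18 tested, against 1.73% of all genes). After radiation 3 were higher and 5 lower (44.4%, against 3.59% of all genes). The medians were -0.023 at 0 Gy and -0.083 after radiation, where those over all genes were -0.021 and -0.017. MMP1 and MMP10 were higher in KO cells at 0 Gy (0.88 and 0.86, limma adjusted p = 0.0011 and 0.00014), and MMP10 and MMP13 after radiation (1.04 and 0.94, 2.1e-05 and 0.0025). MMP1 was also higher after radiation, with means of 25.7 TPM in KO RT and 15.4 in WT RT. MMP13 was also higher at 0 Gy, with means of 10.9 TPM in KO and 5.91 in WT, and neither of these pairs of groups overlapped. Of all genes, 9.62% after radiation and 8.51% at 0 Gy were higher in KO cells without overlap. PLAUR, the urokinase receptor, was lower at 0 Gy (-0.79, limma adjusted p = 0.011) and after radiation (-0.93, 0.0027), FN1 was lower at 0 Gy (-0.83, 0.017), and IL6 was lower after radiation (-1.09, 0.0075). FN1 was also lower after radiation without overlap, with means of 10.9 TPM in KO RT and 17.0 in WT RT, where 14.5% of all genes were lower without overlap. The FN1 call at 0 Gy was lost without WT 0 Gy replicate 1 or KO 0 Gy replicate 2 or 3, and the PLAUR call at 0 Gy without KO 0 Gy replicate 2; both were also lost in a fit to only the 6 unirradiated libraries. No AP-1 target passed the interaction test in limma (4 of 18 at an unadjusted p under 0.05, against 6.61% of all genes).

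Among 13 other AP-1 and ATF family genes, 9 were tested, and 0 passed for KO at 0 Gy (1.73% of all genes). With radiation 1 passed in WT and 1 in KO cells (11.1% each, against 3.74% and 3.69% of all genes). For KO after radiation 1 passed (11.1%, against 3.59%). An unadjusted p under 0.05 in limma was reached by 0, 5, 3 and 4 of the 9 in the same order, against 14.3%, 18.2%, 18.1% and 17.9% of all genes. CREB5 rose in WT cells (1.62 ± 0.21 to 2.87 ± 0.40 TPM, 0.56, limma adjusted p = 0.031). ATF4, the translationally controlled factor of the integrated stress response, fell in KO cells (619 ± 6.85 to 521 ± 23.3 TPM, -0.25, limma adjusted p = 0.015). In the other genotype each moved the same way without overlap but did not pass. The change was 0.38 for CREB5 in KO cells (limma adjusted p = 0.11) and -0.11 for ATF4 in WT cells (0.23). Neither interaction passed (limma adjusted p = 0.89 and 0.75). BATF3 was 0.40 ± 0.084 TPM in KO RT and 1.37 ± 0.41 TPM in WT RT (-0.75, limma adjusted p = 0.044), but it reached 1 TPM in only the 3 WT RT libraries and WT 0 Gy replicate 3, so it entered the test through the group where it was high. The BATF3 call was lost in 15 of 18 alternatives, the CREB5 call in 7 and the ATF4 call in 4. Of 17 MAPK and SRF regulators, all tested, only MKL2, a coactivator of SRF, passed: it fell with radiation in WT cells (45.02 ± 3.74 to 27.9 ± 2.25 TPM, -0.67, limma adjusted p = 0.015) and was higher in irradiated KO than WT cells (0.54, 0.036), calls lost in 3 and 12 of 18 alternatives. That is 1 of 17 (5.88%) in each of these 2 comparisons, against 3.74% and 3.59% of all genes. Of 8 heat shock genes, 3 fell with radiation in both genotypes, where 1.5% of all genes fell in WT and 1.7% in KO cells: HSPB1 by 0.27 in WT and 0.32 in KO cells, and HSPA1A and HSPA1B, near-identical copies whose reads may be split between them, by 0.27 to 0.31. In WT cells the HSPA1A call was lost in 5 of 18 alternatives (adjusted p up to 0.10), the HSPB1 call in 3 and the HSPA1B call in 1, and in KO cells the HSPB1 call was lost in 1.

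**Figure D5:**
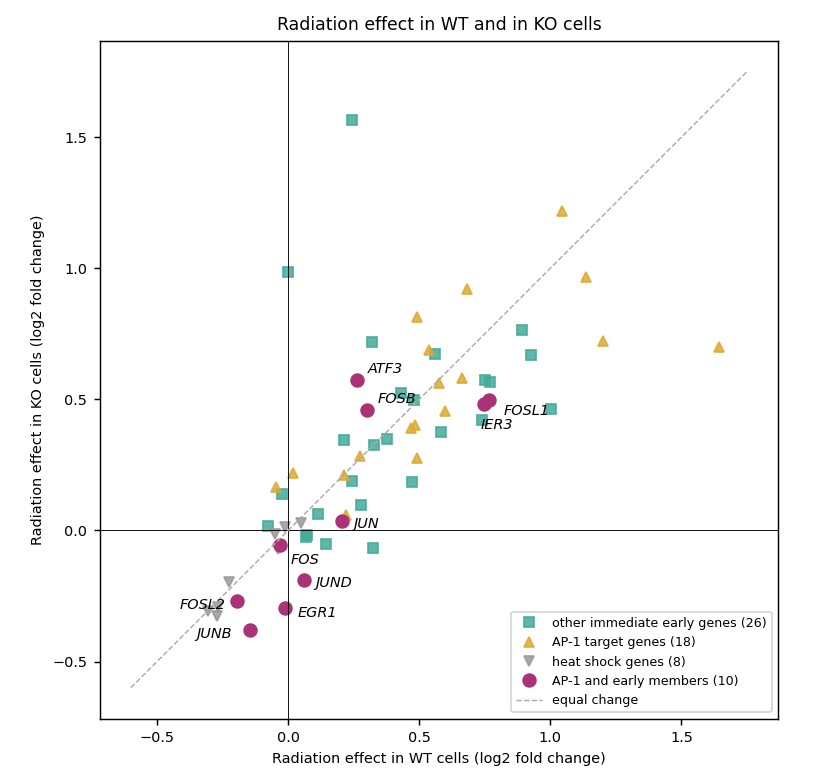
Radiation effect (log2 fold change on the log2(TPM + 1) scale) in WT cells (horizontal axis) and KO cells (vertical axis) for the 10 genes, other immediate early genes, AP-1 targets and heat shock genes, with a dashed line of equal change. FOSL1 and IER3 lie among the rising early genes and targets below the line, and JUNB and FOSL2 lie near the falling heat shock genes.

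For each of the 10 genes the single most similar gene among those tested was found by the Pearson r of log2(TPM + 1) over the 12 libraries. FOSL1 was most like SMOX, spermine oxidase (r = 0.974), which was 6.93 and 6.51 TPM in WT and KO cells at 0 Gy and 10.3 and 7.94 TPM after RT. IER3 was most like STC1, the secreted glycoprotein stanniocalcin (r = 0.983), at 1.77, 1.501, 8.64 and 6.69 TPM in the same order. JUNB was most like P4HA1, a collagen prolyl hydroxylase subunit (r = 0.951), at 61.4, 61.6, 55.4 and 50.0 TPM, and FOSL2 was most like NGEF (r = 0.944). The closest genes for 5 other members had r of 0.872 (FOS with SNHG12), 0.939 (FOSB with PIK3C2A), 0.888 (JUN with PILRB), 0.93 (JUND with TMEM101) and 0.914 (ATF3 with CDC16). Each was picked as the highest of all genes tested, and the 100th most similar gene still reached 0.898 for FOSL1 and 0.903 for IER3.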

How the data were processed

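Polyadenylated RNA from the 12 libraries was sequenced as paired ends. The authors deposited 1 table of TPM per gene and library. The submitters' processing notes name HISAT2, StringTie and DESeq2 with build hg38; versions, annotation release and strand setting are not given in the sources used here. The columns carry other names than the labels. Those named NT2 were assigned to WT from the non-targeting guide in the methods. Those named A63, a name the methods do not use, were assigned to KO by the rule given for this series. TMEM173 served as a check. TPM are not counts, so no count test was run.

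Genes at 1 TPM or more in at least 3 libraries (15973 of 58288) were tested on log2(TPM + 1) with limma 3.58.1 (R 4.3.3): 4 group means, moderated variances with a trend, 8 residual degrees of freedom, Benjamini-Hochberg adjustment over all genes and a threshold of 0.05. Fold changes on this scale understate the change of low genes. The script was tested on simulated data. Gene positions are from GENCODE 29 (GRCh38); of the identifiers in the table, 55661 matched with version.

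All 10 genes were named, TMEM173, up to 4 called genes of the largest fold change per list and contrast, and the most similar gene to each member (that of EGR1 is not reported here); MYC, IER2, ZFP36, DUSP2 and DUSP4 were named after their values were seen, as were genes given beside them for overlap. The members and lists were chosen with earlier results of these data known.

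Each result was recomputed with median-of-ratios factors, with quantile normalization, with a pseudocount of 0.1, without the filter, with a replicate block, with only the 6 libraries compared, and with each library left out in turn. Whether same-numbered libraries pair was checked by the correlation of their deviations.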

Additional observations from a re-analysis of the deposited data

How the results depend on the processing

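Under the 17 or 18 alternatives run per comparison, 845 of 890 recomputed member fold changes kept their direction and side of the threshold, 17 lost the call, 5 gained it and 23 changed sign. Every change of sign came from leaving out 1 library and concerned a difference that had not passed. Leaving out 1 library at a time, members past the threshold numbered 0 to 1 for KO at 0 Gy, 0 to 1 for KO after RT, 2 to 2 for radiation in WT, 2 to 5 for radiation in KO and 0 to 0 for the interaction. All genes past it numbered 172 to 292 (276 with every library), 313 to 542 (573), 242 to 526 (597), 268 to 553 (590) and 1 to 9 (3). Fits to only the 6 libraries compared gave 103, 252, 166 and 195 genes, where fewer samples estimate the spread. Without a filter on low values, 0 members passed for KO after RT (1 with the filter) and 7 genes passed the interaction.

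Same-numbered libraries of different groups had deviations correlated at -0.060 to 0.064 (18 pairs), and differently numbered ones at -0.070 to 0.057 (36 pairs). This check gave no sign of pairing by number, but it cannot exclude that same-numbered libraries were handled together. With the replicate block, 378 genes passed for KO after RT, 315 for radiation in WT, 359 for radiation in KO and 1 for the interaction, and FOSL2 lost its call in KO cells (limma adjusted p = 0.065); no other member call changed.

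The ranges over left-out libraries that crossed 0 were -0.034 to 0.083 for JUND (KO at 0 Gy); -0.0087 to 0.068 for FOSL2 and -0.087 to 0.0094 for JUN (KO after RT); -0.20 to 0.062 for FOS, -0.00098 to 0.67 for ATF3, -0.094 to 0.057 for EGR1 and -0.033 to 0.10 for TMEM173 (radiation in WT); -0.19 to 0.10 for FOS and -0.0055 to 0.078 for JUN (radiation in KO); and -0.16 to 0.15 for FOS and -0.092 to 0.57 for ATF3 (interaction). The cause was not tested. TPM keep no depth, so how far counting error limits FOSB and ATF3, the lowest members, is unknown.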

Other observations

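MYC, ZFP36 and IER2, 3 further immediate early genes, gave values that spread widely within groups. MYC was 125.6, 130.6 and 6.70 TPM in WT 0 Gy, 6.39, 113.6 and 5.22 in KO 0 Gy, 123.6, 6.69 and 126.7 in WT RT and 92.7, 7.83 and 7.48 in KO RT. Its libraries lay either between 5.22 and 7.83 TPM or between 92.7 and 130.6 TPM, with both levels present in all 4 groups, and it passed in no comparison. ZFP36, which encodes an RNA-binding protein that destabilizes AU-rich messages, was 16.2, 40.5 and 42.1 TPM in WT 0 Gy, 14.6, 44.2 and 12.3 in KO 0 Gy, 13.6, 44.3 and 45.3 in WT RT and 44.4, 35.7 and 42.9 in KO RT. Libraries thus lay either between 12.3 and 16.2 TPM or between 35.7 and 45.3 TPM, and both levels were present in 3 of the 4 groups. IER2 was 40.9, 20.2 and 19.96 TPM in WT 0 Gy, 17.99, 6.31 and 6.98 in KO 0 Gy, 39.4, 18.5 and 38.2 in WT RT and 40.1, 19.5 and 32.9 in KO RT. Its log2 fold change with radiation was 1.56 ± 0.45 in KO cells (limma adjusted p = 0.089) and 0.24 ± 0.45 in WT cells (0.84), and the interaction did not pass (0.76). The cause of the spread was not tested.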
